A study of Oryza longistaminata with 15 samples.

Results

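AS2, short for asymmetric leaves 2, belongs to a plant-specific family of transcription factors that share the LOB (lateral organ boundaries) domain. In *Arabidopsis* AS2 acts with a MYB partner in young leaf primordia, where it keeps meristem genes of the KNOX homeobox class off and helps set up a flat, symmetric leaf. Other LOB domain genes act at the boundary between a meristem and the organs it forms, or in roots.

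The probe sets annotated as AS2 in the tables of the paper that describes these arrays were taken as the members. There were 2 of them among the 57381 probe sets of the array, Os.18459.2.S1_x_at for *Os01g66590* and OsAffx.23944.2.S1_at for *Os05g34450*. The locus names place the genes on chromosomes 1 and 5 of cultivated rice. The platform annotation gives the first the symbol LOC4324906 and lists no gene for the second. The paper's tables were themselves drawn up from these arrays. *Os01g66590* stands in its list for the shoot tip and in its list of tip differences, and *Os05g34450* in its list for the young leaf. The differences between the tissue a gene was listed for and the other tissues are therefore given below as a description with no test. Tests are given for the other 6 tissue comparisons of each gene. The tissue lists had first passed a screen for any difference among the 5 tissues, so these comparisons are not fully independent of the choice either.

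RNA was measured in 5 tissues of wild-type *O. longistaminata*, a wild rice with long rhizomes, sampled in the greenhouse at the active tillering stage. The tissues were young leaf (YL), rhizome tip (RT, the last 1 cm), shoot tip (ST, the last 5 mm with leaves removed), rhizome internode (RI) and shoot internode (SI), with 3 biological replicates each on 15 Affymetrix arrays, from 5 µg of total RNA. The sample records speak of individual plants and the paper of an accession kept as a single plant, so p-values measure the spread between these samples only. The array was designed on cultivated rice.

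Array medians ran from 21.9 to 23.6, and the detection cutoff, a signal of 49.6, was passed by 17943 to 18834 rice probe sets. The cutoff was the 95th percentile of 64 reporter control probe sets that match no rice gene. The names of the tips are in doubt: of 424 probe sets in the published list of tip differences, 0 had the printed direction with the arrays taken as labelled and 424 had the opposite one. The arrays are therefore called RT-labelled and ST-labelled. The list for the shoot tip holds genes that were high on the RT-labelled arrays. The summed signal of 14 light-harvesting probe sets, markers of green tissue, was 50686 to 66449 on the YL arrays, 8776 to 9979 on the RT-labelled, 791 to 1080 on the ST-labelled, 2125 to 2328 on the RI and 33359 to 40196 on the SI arrays. Among these, the RT-labelled tips held more signal of green tissue than the ST-labelled ones. The 14 probe sets came from the paper's lists, which were drawn up from these arrays, so this order is a description only.

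*Os01g66590* was a gene of both tips. In YL it had signals of 19.9, 22.8 and 12.5. The RT-labelled tips gave 233, 259 and 269, and the ST-labelled tips 84.6, 108 and 139. RI gave 11.1, 15.7 and 11.8, and SI 13.3, 12.8 and 11.8. All 6 tip arrays lay above the cutoff and the 9 other arrays below it, with no overlap. The signals in RI lay between the 49.1st and 68.8th percentile of the reporter controls and those in SI between the 53.1st and 59.6th, within the range of probe sets that match no rice gene.

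**Figure D1:**
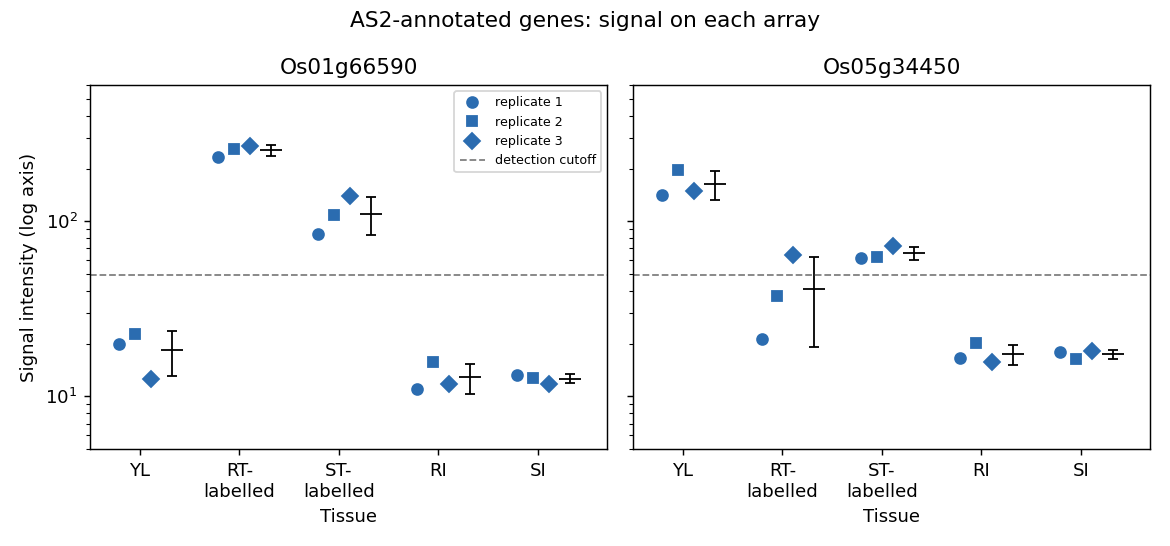
Signal of each gene on each array (log axis) by tissue; symbols are replicates, the bar beside them is the mean with its SD (n = 3) and the dashed line is the detection cutoff of 49.6. *Os01g66590* was above the cutoff on all 6 tip arrays and no other, and *Os05g34450* on all YL and ST-labelled arrays and on RT-labelled replicate 3.

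On the RT-labelled arrays *Os01g66590* averaged 254 ± 18.2 (SD, n = 3), against 110 ± 27.1 on the ST-labelled arrays, a ratio of 2.30. Every RT-labelled array was above every ST-labelled one. This is the difference for which the gene was listed, so it carries no test. Its log2 size was 1.23 with a standard error of 0.25. The RT-labelled tips were at least 5.1-fold above RI and above SI, and the leaf at least 5.1-fold below the RT-labelled tips, also without a test. If the names of the tips are exchanged, the same difference makes the gene higher in the shoot tip.

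On the ST-labelled arrays, which are not the tissue of its list, *Os01g66590* was also higher than in the internodes and the leaf. Over SI the log2 difference was 3.10 (limma, standard error 0.25, adjusted p = 3.6e-06), which is at least 2.18-fold when the SI signals are put at the cutoff. Higher signals on the ST-labelled arrays than in SI were called for 11.4% of the 21303 probe sets tested, and a larger absolute difference was found for 4.43% of them. Over RI it was 3.09 (limma, standard error 0.25, adjusted p = 5.7e-06), again at least 2.18-fold, where 13.1% of probe sets were called higher. These bounds are much smaller than the fitted folds because RI and SI gave no signal above background. In bulk tissue, fewer cells that express a gene and less RNA per cell cannot be told apart.

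In YL *Os01g66590* averaged 18.4 ± 5.29 (SD, n = 3), against 110 ± 27.1 in the ST-labelled tips, and the log2 difference was −2.60 (limma, standard error 0.25, adjusted p = 3.1e-06). The leaf was at least 2.18-fold lower. Calls of lower signal in YL were made for 22.1% of probe sets in this comparison. Among YL, RI and SI the gene was below the cutoff on every array, so no fold is given. None of the 3 differences among them was called (adjusted p = 0.12 for YL against RI, 0.12 for YL against SI and 1.0 for RI against SI, limma). The shares of probe sets called in these comparisons were 37.5%, 33.2% and 1.9%.

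*Os05g34450* was brightest in the leaf and was also above the cutoff on all ST-labelled arrays. It had signals of 142, 197 and 149 in YL. On the RT-labelled arrays it had 21.2, 37.3 and 63.9, and on the ST-labelled arrays 62.1, 62.8 and 72.0. It had 16.5, 20.1 and 15.7 in RI and 18.0, 16.3 and 18.1 in SI. All YL arrays were above all others and the internode arrays were below all tip arrays. The RT-labelled arrays spread widely, with 1 of 3 above the cutoff, and overlapped the ST-labelled ones.

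In YL *Os05g34450* averaged 163 ± 30.4 (SD, n = 3), against 40.8 ± 21.6 in the RT-labelled tips and 65.6 ± 5.52 in the ST-labelled tips. The YL mean was 3.99 times the RT-labelled and 2.48 times the ST-labelled mean. YL was at least 3.24-fold above RI and above SI. These are the differences that placed the gene in the leaf list and they carry no test.

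Outside the leaf, the ST-labelled arrays were higher than both internodes for *Os05g34450*. The log2 difference was 1.91 against SI (standard error 0.31, adjusted p = 0.00063, limma) and 1.92 against RI (standard error 0.31, adjusted p = 0.00064). Both are at least 1.32-fold with the internodes put at the cutoff, and with all values under the cutoff set to it neither difference was called (0.40 and 0.40 on the log2 scale, adjusted p = 0.066 and 0.068). The background shares are those given above for the ST-labelled arrays, 11.4% and 13.1%.

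The RT-labelled arrays were also called higher than the internodes, but this rested on weak signals. The log2 difference was 1.09 against RI (standard error 0.31, adjusted p = 0.015, limma), where 18.5% of probe sets were called higher. It was 1.08 against SI (standard error 0.31, adjusted p = 0.017), where 15.4% were. Without RT-labelled replicate 3, the only one above the cutoff, the differences were 0.70 and 0.69 and neither was called (adjusted p = 0.055 and 0.061). No bound is given, since the geometric mean of the RT-labelled arrays, 37.0, lay below the cutoff.

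The 2 tips were not called different for *Os05g34450*. The log2 difference of the RT-labelled from the ST-labelled arrays was −0.82 (limma, 95% interval −1.50 to −0.14, adjusted p = 0.38, unadjusted p = 0.021), in a comparison where 0.864% of probe sets were called. It was −0.42 without RT-labelled replicate 1 (adjusted p = 0.64), −1.22 without RT-labelled replicate 3 (adjusted p = 0.066) and −0.28 with values under the cutoff set to it (adjusted p = 0.56). The light-harvesting signal of RT-labelled replicates 1, 2 and 3 was 8776, 9979 and 9604, while *Os05g34450* had 21.2, 37.3 and 63.9 on the same arrays. Green tissue's part in the spread of the gene was not tested. RI and SI were not called different (log2 difference −0.01, 95% interval −0.69 to 0.67, adjusted p = 1.0), with both below the cutoff.

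**Figure D2:**
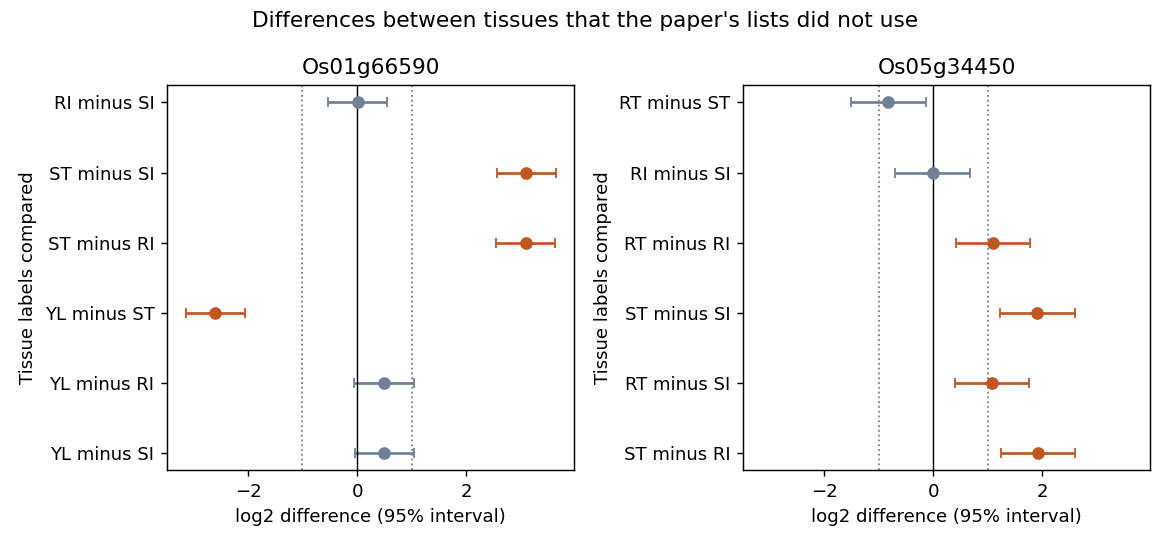
Log2 differences (points) with 95% intervals from the limma fit for the 6 tissue comparisons of each gene that its list did not use; orange marks called differences, grey those not called, and dotted lines stand at 2-fold. Both genes were higher on the ST-labelled arrays than in RI and SI, by 3.09 and 3.10 for *Os01g66590* and by 1.92 and 1.91 for *Os05g34450*.

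Both AS2-annotated genes thus shared low internode signals and called differences between the ST-labelled tip and either internode, while the leaf was the highest tissue for *Os05g34450* and below the cutoff for *Os01g66590*. Over the 15 arrays, Pearson's r of their log2 signals was 0.224, as a description of arrays that share tissues. The residual SD within tissues was 0.29 on the log2 scale for *Os01g66590* and 0.389 for *Os05g34450*, against a median of 0.42 over the probe sets tested. The other probe set of the same Affymetrix cluster number as *Os05g34450* had 13.4 to 27.3 and was below the cutoff on all 15 arrays. No other probe set shares the cluster number of *Os01g66590*. The suffix _x_at of its identifier marks a probe set with probes that may also bind other transcripts.

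The tip pattern of *Os01g66590* was shared with other probe sets. Of the tested probe sets, 420 (1.97%) were above the cutoff on all 6 tip arrays and on no other array, and in 162 of these every RT-labelled array was above every ST-labelled array. The pattern of *Os05g34450* was rarer: 45 probe sets (0.211%) were above the cutoff on all YL and ST-labelled arrays and on no RI or SI array, and 38 of these were also above it on all RT-labelled arrays. It was one of the 4 probe sets with 1 or 2 RT-labelled arrays above the cutoff. These patterns were drawn from the genes' own signals. At the 99th percentile of the reporter controls, 62.4, ST-labelled replicate 1 of *Os05g34450* (62.1) would lie below, and the patterns were not recounted there.

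The genes were next set beside the other genes of their own lists, in comparisons between tissues other than the listed one. All 5 tissues had entered the choice of the lists, so the counts are descriptions and no independent evidence. Of 299 probe sets listed for the shoot tip, 187 (62.5%) were higher on the ST-labelled arrays than in SI, against 11.4% of all tested probe sets, and 0 lower, with a median log2 difference of 1.38 against −0.04 over all tested probe sets. *Os01g66590* had 3.10, and 30 of the listed probe sets had a larger difference. Of the 299, 64 were above the cutoff in both tips only, as *Os01g66590* was. In this comparison the leaf list went the other way. Of its 1973 tested probe sets, 27 (1.37%) were higher on the ST-labelled arrays than in SI, against the same 11.4%, and 667 (33.8%) lower, where 13.9% of all tested probe sets were called lower, with a median of −0.69. The count of 27 was 57 without SI replicate 1, 17 without SI replicate 2 and 16 without ST-labelled replicate 1. *Os05g34450*, at 1.91, was among the 27, and 7 listed probe sets exceeded it. The order depended on the tissues compared. For the RT-labelled arrays against RI, 202 of the leaf list (10.2%) were higher, against 18.5% of all tested probe sets. There 233 (11.8%) were lower, the median was 0.0 and 218 listed probe sets exceeded *Os05g34450*, at 1.09. Against SI, 52 exceeded its 1.08 on the RT-labelled arrays, and against RI 8 exceeded its 1.92 on the ST-labelled arrays. Of that list, only *Os05g34450* was above the cutoff on all YL and ST-labelled arrays and below it on all RI and SI arrays. This pattern was drawn from its own signals, so the count is a description only. Over all tested probe sets, 45 (0.211%) had the pattern. The count may depend on the cutoff, since the gene's ST-labelled signals of 62.1, 62.8 and 72.0 lay near it. The means of the listed *Os05g34600* lay on the same sides of the cutoff in these tissues. Its ST-labelled mean was 80.3 ± 33.5 (SD, n = 3).

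**Figure D3:**
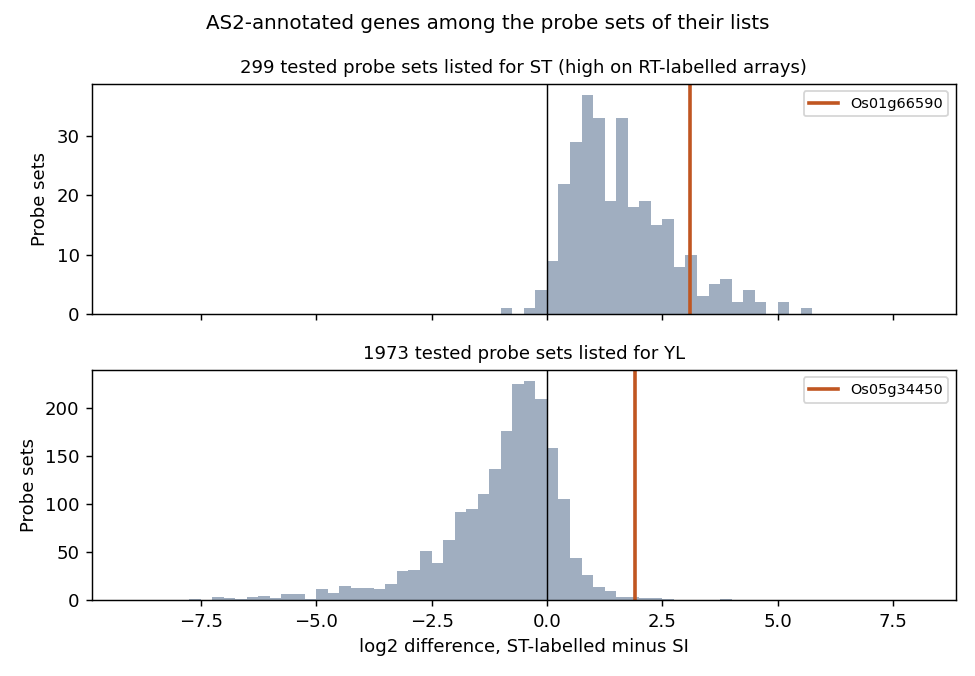
Log2 difference between the ST-labelled and SI arrays for the probe sets of the shoot tip list (upper, 299 probe sets) and the young leaf list (lower, 1973 probe sets), in bins of 0.25; the orange line marks the AS2-annotated gene of each list. *Os01g66590* lay at 3.10 in a list with a median of 1.38, and *Os05g34450* at 1.91 in a list with a median of −0.69.

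Other genes of lateral organs and meristems were taken from the same tables by annotation. They were 3 KNOX, 4 YABBY, 2 auxin response factor, 3 PINHEAD or Piwi, 2 TCP probe sets and 1 growth-regulating factor. The annotations gave 0 probe sets for the MYB partner of AS2 (AS1 or rough sheath 2), 0 for class III HD-ZIP genes, 0 for KANADI genes and none for the LOB domain family beyond the 2 members. All were selected on these arrays, with all 5 tissues in the screen, so each is given for a tip it had not been listed for and the counts are no independent evidence. Of the 13 tip-listed probe sets, 10 were higher there than in SI, 0 lower and 3 not called, with a median log2 difference of 1.79. Over all tested probe sets, 11.4% were called higher than SI for the ST-labelled tips and 15.4% for the RT-labelled tips, with medians of −0.04 and −0.01. Against RI, 9 of the 13 were higher, 0 lower and 4 not called, with a median of 2.02. The shares over all tested probe sets were 13.1% and 18.5% there, with medians of 0.01 and 0.09.

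YABBY genes mark the outer or lower side of lateral organs in *Arabidopsis*. Their probe sets were called higher than SI in 3 of 4 cases and higher than RI in 2 of 4. *Os04g45330* averaged 763 ± 74.4 in the ST-labelled tips and 22.6 ± 6.24 in SI (SD, n = 3 each), at least 15.3-fold higher in the tip (limma, adjusted p = 3.5e-07). The YABBY gene *Os03g44710* was present in the leaf as well, with 169 ± 89.9 in YL, 220.0 ± 14 in the ST-labelled tips and 20.4 ± 3.30 in SI. *Os07g06620* was higher on the RT-labelled arrays than in SI (log2 difference 2.61, standard error 0.94, adjusted p = 0.043, limma) but was not called against RI (1.4, adjusted p = 0.26). The probe set of *Os07g0160100* was called against neither, with 1.21 over SI (standard error 0.67, adjusted p = 0.17) and 0.72 over RI (adjusted p = 0.41). The names *Os07g06620* and *Os07g0160100* follow different formats, and whether they are separate genes was not checked.

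Genes for PINHEAD proteins, ARGONAUTE relatives that act in the shoot meristem and in organ polarity in *Arabidopsis*, were also higher in the ST-labelled tips than in RI and SI. *Os06g51310* averaged 816 ± 103 in these tips and 50.4 ± 15.8 in RI (SD, n = 3 each), and the log2 difference was 4.06 (limma, standard error 0.28, adjusted p = 2.2e-06). *Os06g39640* had 467 ± 168 and 19.3 ± 1.51, at least 8.93-fold (adjusted p = 1.2e-05). Over SI the log2 differences were 2.08 (adjusted p = 0.00016) and 2.70 (adjusted p = 0.00034). For the growth-regulating factor, *Os06g02560*, the tip exceeded RI by at least 4.44-fold (adjusted p = 0.0008) and SI by at least 4.44-fold (adjusted p = 0.00027). Both TCP probe sets were called higher than RI and SI, *Os03g57190* in the ST-labelled and *Os03g49880* in the RT-labelled tips. The latter averaged 52.2 ± 20.8 there, near the cutoff. In the ST-labelled tips, the auxin response factor *Os04g57610* was called against both internodes. *Os12g29520* was called against RI (1.56, adjusted p = 0.0034) but not SI (0.84, adjusted p = 0.07).

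Among the KNOX genes, *OSH1* (*Os03g51690*), a marker of the shoot meristem and of the class that AS2 keeps off in *Arabidopsis* leaves, was not called higher on the RT-labelled arrays than in RI (log2 difference 0.36, adjusted p = 0.32, limma) or SI (0.55, adjusted p = 0.13). Of the other probe sets listed for the same tip, those of *Os07g06620*, *Os07g0160100* and the Piwi gene *Os02g07310* (0.47, adjusted p = 0.11) were likewise not called against RI. *OSH1* had its highest means in the tips, 1212 ± 196 on RT-labelled and 1854 ± 153 on ST-labelled arrays (SD, n = 3 each), where *Os01g66590* was also above the cutoff. It averaged 946 ± 154 in RI and 833 ± 186 in SI, with both AS2-annotated genes below the cutoff. In YL it averaged 8.33 ± 2.98, below the cutoff as *Os01g66590* was, while *Os05g34450* had its highest signal there. The probe set of *OSH1* also carries the suffix _x_at, so its signals may include other transcripts. The 2 knotted-1-like 3 genes were highest in the leaf, and were lower in the ST-labelled tips than in SI. The log2 differences were −1.79 for *Os06g43860* (limma, adjusted p = 0.00048) and −1.46 for *Os08g19650* (adjusted p = 0.013). Their annotation does not place them in the class that AS2 keeps off.

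**Figure D4:**
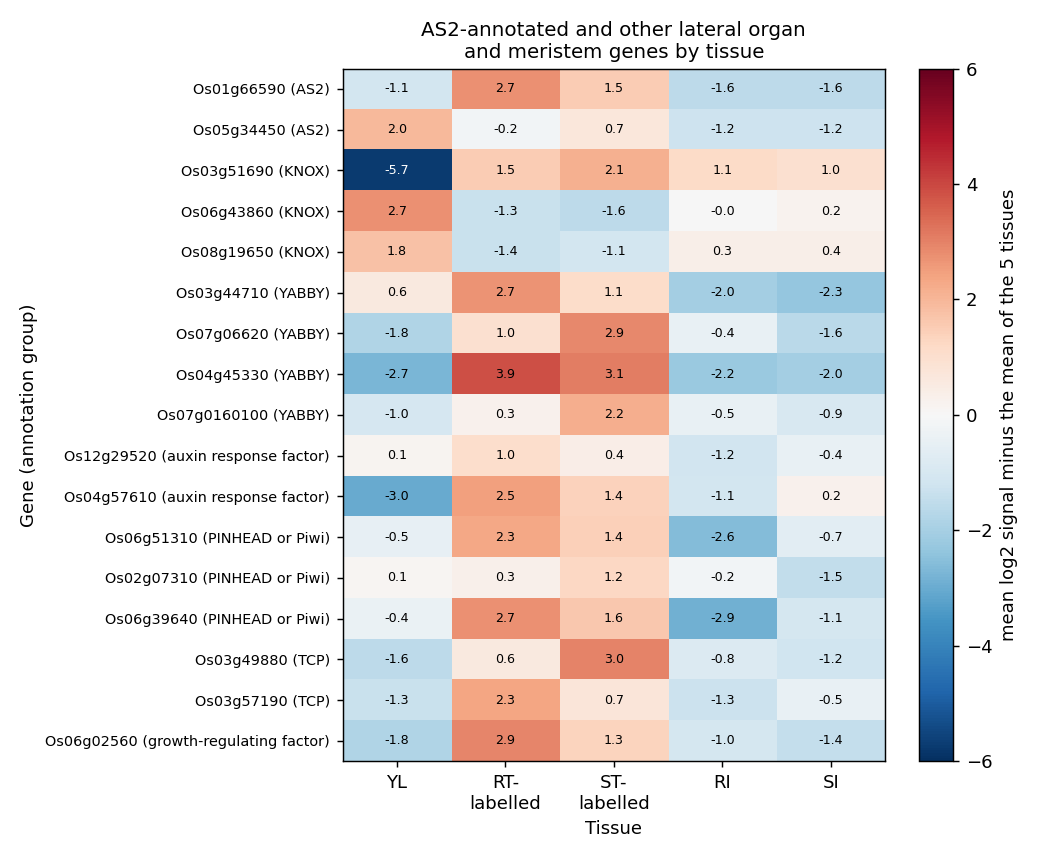
Mean log2 signal (n = 3) of each probe set in each tissue minus the mean of its 5 tissues, red above and blue below it. Rows are the 2 AS2-annotated genes (top) and 15 probe sets of other lateral organ and meristem genes. *Os01g66590* was high in both tips, like *Os04g45330* and *Os06g51310*, and *Os05g34450* was highest in YL, like both knotted-1-like 3 genes.

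The probe sets most like each member were ranked by Pearson's r of log2 signal over the 15 arrays, which reflects the shared tissues as well as the genes. For *Os01g66590*, 685 probe sets (3.22% of the 21302 others) had an r over 0.9. The closest 5 had an r of 0.983 to 0.985 and were *Os05g34240*, *Os11g19730*, *Os08g38310*, LOC4350711 and *Os03g47140*. The 4 with an annotation in the tables are given there as expressed proteins. *Os11g19730*, for example, had 14.5 ± 2.65 in YL (SD, n = 3), against 422 ± 15.2 in the RT-labelled tips and 168 ± 17.7 in the ST-labelled tips.

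For *Os05g34450*, 21 probe sets (0.0986%) had an r over 0.9. The closest 5 had an r of 0.925 to 0.945. They were both probe sets of LOC4332796 (*Os03g22210*), *Os08g12780*, *Os05g34600* and LOC4324118. *Os05g34600* is annotated as a no apical meristem protein. It had 534 ± 29.1 (SD, n = 3) in YL, 73.9 ± 11.2 in the RT-labelled tips and 80.3 ± 33.5 in the ST-labelled tips, against 13.5 ± 4.67 in RI and 15.7 ± 4.46 in SI. *Os08g12780* had 145 ± 16 in YL, 52.2 ± 28.2 in the RT-labelled tips and 55.4 ± 9.67 in the ST-labelled tips.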

How the data were processed

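The deposited values are signal intensities on a linear scale. According to the paper's methods, the authors scanned 1-colour GeneChip Rice Genome Arrays, processed the images with GCOS and scaled all arrays together in dChip; the table has no detection calls. Of 57381 probe sets, 187 controls were removed. The test took the 21303 probe sets, both members included, whose 3 signals in some tissue all passed the cutoff of 49.6. Signals under 1 were set to 1, log2 was taken, and 1 mean per tissue was fitted over all 15 arrays with limma 3.58.1 in R 4.3.3 (10 residual degrees of freedom), in place of the SAM test of the methods. Differences were called at a Benjamini-Hochberg adjusted p under 0.05 over all tested probe sets and over 2-fold. With 3 arrays a side, the smallest p of an exact permutation test is 0.1. "At least" folds divide the geometric mean of the brighter tissue by the cutoff. Array number limits the precision. The fit was tested on simulated data. Members and lists were chosen with earlier results of these data known, and the annotations came from the paper's tables, as no genome or sequences came with the data. Named genes were both members, the list members the paper names or with the widest range, and the 5 probe sets most alike. Alternatives were quantile normalization, median centring, other cutoffs, no filter, a floor at the cutoff, 16 added to signals, a variance trend, only the 6 arrays compared, a replicate block and each array left out. The replicate numbers were not taken to pair tissues. Figures were drawn with matplotlib 3.10.9.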

Additional observations from a re-analysis of the deposited data

How the results depend on the processing

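Each result was recomputed under 25 alternatives. The differences of *Os01g66590* between the ST-labelled arrays and SI, RI or YL kept their direction and their call in all of them, with ranges of 1.13 to 3.28, 1.13 to 3.27 and −2.78 to −1.13 on the log2 scale. For *Os05g34450*, the ST-labelled arrays against SI or RI lost the call only with values under the cutoff set to it (0.40 and 0.40). The RT-labelled arrays against RI or SI lost it in 5 and 4 alternatives. These were the same floor (0.122 and 0.122), 16 added before log2 (0.697 and 0.693), only the 6 arrays compared (1.09 and 1.08) and an array left out, RT-labelled replicate 3 for both and RI replicate 3 for RI (1.02, adjusted p = 0.053). With 1 array left out the ranges were 0.698 to 1.49 against RI and 0.687 to 1.48 against SI. The difference of *Os05g34450* between the tips was −0.278 with the floor and −1.22 to −0.423 with 1 array left out, and was called in none. Differences between RI and SI, where both genes were below the cutoff, changed sign around 0. For *Os01g66590* they were −0.0226 with quantile normalization, −0.000111 with median centring and −0.142 to 0.109 with 1 array left out, and for *Os05g34450* −0.117 to 0.0601 with 1 array left out. The cause of these changes was not tested beyond what each setting does to low signals.

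The count of probe sets called between the tips was 184 and ranged from 113 to 269 with 1 array left out (113 without RT-labelled replicate 1, 114 without ST-labelled replicate 1). Between RI and SI it was 405, with 124 for only the 6 arrays compared and 246 to 848 with 1 array left out (246 without RI replicate 3, 848 without SI replicate 1). The other 8 counts stayed within 1.5 times. The 27 leaf-list probe sets higher on the ST-labelled arrays than in SI became 13 with the floor or with 16 added, and 16 to 57 with 1 array left out (16 without ST-labelled replicate 1, 17 without SI replicate 2, 57 without SI replicate 1). With the replicate block, 158 probe sets were called between the tips and 350 between the internodes, and no call of either gene changed. Of 30 pairs of same-numbered arrays, 6 had residual correlations over 0.1 and 7 under −0.1. The highest were between RI and SI, 0.621 for replicate 1 and 0.441 for replicate 2, with 0.0821 for replicate 3. Whether same-numbered internode arrays shared a source was not tested. The signals of *Os05g34450* on the RT-labelled and the ST-labelled arrays lay near the cutoff, which limits their precision.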
